A study of Salmo salar with 30 samples.

Results

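Functional feed package 2 (P2) was given to Atlantic salmon in feeds built on each of 2 plant proteins, which makes a factorial of package by plant protein in the distal intestine. The rule took every array from the 4 diets that form this design, 20 of the 30 arrays of the series. Each diet had 5 fish, and each fish its own array. The diets were soybean meal + P2, soybean meal, corn gluten + P2 and corn gluten. P2 supplied β-glucan at 0.1%, butyrate at 0.01% and nucleotides at 0.05% of the feed. All fish had a starting weight of 177 g and were held at 11.2 °C for 67 days in 18 tanks. The 5 control fish, fed a diet rich in fish meal, are given as background only. The labels do not say which tank held which fish, so fish of 1 tank cannot be recognised with certainty, and p-values here treat the fish as independent. Names of the deposited files mention pea for both corn gluten feeds while the labels do not, so whether those feeds held pea is unknown here.

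The distal intestine is the hindmost gut segment of salmon, where proteins are taken up and broken down inside the enterocytes and where many immune cells lie. Soybean meal is known to cause an inflammation of this segment in salmon, with shortened mucosal folds and loss of the absorptive vacuoles, whereas corn gluten, the protein fraction of maize, is not known for it. β-Glucans are cell wall polysaccharides of yeast and fungi that innate immune cells recognise, butyrate is a short-chain fatty acid that intestinal epithelium burns and that inhibits histone deacetylases in mammals, and dietary nucleotides are building blocks for dividing cells. The design asks whether P2 changed the intestine in general, whether it did so without soybean meal, and whether its effect depended on the plant protein.

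Signals were log2 intensities minus the 75th percentile of their array, so that 0 is a bright probe and negative levels are dimmer. Of 14841 probes, 13577 cleared the scanner's background flag on 5 or more of all 30 arrays and were tested, and the other 1264 were left out. On the 20 arrays, 12551 to 13286 probes were well above background, and the 75th percentile ran from 599.9 to 885.6 intensity units. Correlations between arrays of 1 diet ran from 0.965 to 0.986. The median SD of a probe between fish was 0.27 in soybean meal + P2, 0.28 in soybean meal, 0.27 in corn gluten + P2 and 0.26 in corn gluten, in log2 units. The probe identifiers carry no gene names here, so genes, pathways and cell type markers could not be read, and the labelled tissue was not checked against its markers. In whole tissue, fewer cells of a type and less RNA per cell cannot be told apart.

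The 2 plant proteins differed widely from each other, which sets a yardstick for the package. Averaged over both levels of P2, 4139 of 13577 probes (30.5%) passed an adjusted p of 0.05 in limma, 1936 (14.3%) higher and 2203 (16.2%) lower with soybean meal than with corn gluten. The median size of the passing differences was 0.49 log2 units, and 593 exceeded 2-fold. Probe Ssa#S47729315 averaged 2.72 ± 0.99 in soybean meal + P2, 2.52 ± 0.47 in soybean meal, -3.91 ± 0.25 in corn gluten + P2 and -3.81 ± 0.79 in corn gluten (SD, n = 5 each), a protein difference of 6.48 log2 units (SE 0.29, limma adjusted p = 6.86e-11). All 10 fish fed soybean meal lay above all 10 fed corn gluten, and control fish averaged -4.39, beside the corn gluten fish. Probe Ssa#S30235658 did the reverse, at -4.75 ± 0.68 in soybean meal + P2, -4.83 ± 0.38 in soybean meal, 2.20 ± 0.64 in corn gluten + P2 and 1.49 ± 0.80 in corn gluten (SD, n = 5 each). Its protein difference was -6.64 (SE 0.27, limma adjusted p = 2.55e-11), again with no overlap of the fish. Probe Ssa#GRASP223647763 was also higher with soybean meal, by 3.82 (SE 0.34, limma adjusted p = 3.6e-07). Probe Ssa#S18862026 was lower with soybean meal, at -4.62 (SE 0.54, limma adjusted p = 4.62e-06). For these probes the P2 change did not pass in either protein, and neither did the interaction.

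P2 averaged over both plant proteins changed no probe past the threshold. In limma, 0 of 13577 probes (0%) passed, 1652 (12.2%) had an unadjusted p below 0.05, and the lowest adjusted p was 0.101. The median SE of the averaged change was 0.13 log2 units. For 11913 probes (87.7%) the 95% confidence interval of the averaged change lay within 2-fold of no change in both directions. Without corn gluten fish 1 the count became 26, of which 24 were higher and 2 lower with P2.

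By their estimates, the probes with the lowest p for the average took their values mostly from 1 of the proteins. Probe Ssa#S31988336 measured -2.06, -2.26, -2.25, -2.16 and -2.17 in soybean meal + P2 fish, against -2.81, -2.80, -2.77, -2.64 and -2.64 in soybean meal fish. In corn gluten + P2 fish it measured -1.70, -1.96, -1.86, -1.86 and -2.01, against -1.90, -1.98, -2.01, -2.06 and -1.85 in corn gluten fish. The soybean meal fish lay below all fish of the other 3 diets and below the control fish, and the corn gluten groups overlapped. Its averaged change was 0.32 (SE 0.06, limma adjusted p = 0.101), made of 0.55 in soybean meal, which passed (limma adjusted p = 0.00466), and 0.08 in corn gluten (95% interval -0.08 to 0.25). Probe Omy#S32040305 had the same layout, with 1.07 in soybean meal (limma adjusted p = 0.00536) and 0.14 in corn gluten (95% interval -0.20 to 0.47). Probe Ssa#GRASP209732039 was at -0.60 in soybean meal (limma adjusted p = 0.0215) and -0.22 in corn gluten (95% interval -0.47 to 0.03). The direct test of the difference, the interaction, passed for none of these probes (limma adjusted p = 0.0532, 0.0566 and 0.256). A P2 change in 1 protein only was thus not shown for them.

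Probe Ssa#GRASP209731809 was the exception, with its larger value in corn gluten. It measured -1.62, -1.25, -1.29, -0.65 and -1.24 in corn gluten + P2 fish, against -0.68, 0.17, 0.27, -0.19 and -0.24 in corn gluten fish. Only corn gluten + P2 fish 4, at -0.65, reached the level of a corn gluten fish. In soybean meal + P2 it averaged -0.20 ± 0.18, against 0.14 ± 0.34 in soybean meal (SD, n = 5 each). Its change was -1.08 in corn gluten (SE 0.20), -0.34 in soybean meal (SE 0.20) and -0.71 averaged (SE 0.14), and none of these passed (limma adjusted p = 0.169, 0.326 and 0.101). Nor did its interaction of 0.74 (SE 0.28, limma adjusted p = 0.201).

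Within corn gluten, P2 also changed no probe past the threshold. In limma 0 of 13577 probes (0%) passed, 1003 (7.39%) had an unadjusted p below 0.05, and the lowest adjusted p was 0.0964. For 77.2% of probes the 95% interval of the change within corn gluten stayed within 2-fold. Probe Ssa#S32011156 measured -3.97, -3.63, -4.10, -3.85 and -3.64 in corn gluten + P2 fish, against -4.51, -5.73, -6.38, -5.96 and -5.95 in corn gluten fish. The groups did not overlap, and the difference of 1.87 (SE 0.38, 95% interval 1.06 to 2.67) did not pass (limma adjusted p = 0.222). Probe Omy#S34313239 likewise did not overlap, at -5.39, -5.06, -5.41, -5.28 and -4.41 in corn gluten + P2 fish and -6.27, -5.92, -7.12, -7.47 and -7.02 in corn gluten fish. Its difference was 1.65 (SE 0.32, limma adjusted p = 0.204), with the probe well above background in 4 of 5 corn gluten fish. Both probes were named for their low p, so the lack of overlap follows in part from that choice. In the soybean meal pair the same probes differed the other way, by -1.17 and -1.26. Of these, the change of Omy#S34313239 passed (limma adjusted p = 0.0486) and that of Ssa#S32011156 did not (limma adjusted p = 0.0977), while both interactions passed (limma adjusted p = 0.0124 and 0.0233).

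The count of 0 in corn gluten moved when single fish were left out. It was 12 without corn gluten fish 1, 10 without corn gluten fish 2, 5 without soybean meal fish 2 and 1 without corn gluten fish 5. The fish of corn gluten + P2 and of corn gluten shared no slide, so slide and package cannot be told apart inside this pair.

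Within soybean meal P2 changed 325 of 13577 probes (2.39%) past the threshold in limma, 260 (1.92%) higher and 65 (0.479%) lower. Among all probes 2916 (21.5%) had an unadjusted p below 0.05. The median size of the passing changes was 0.78 log2 units and 119 exceeded 2-fold. Probe Ssa#S18863448 measured -3.88, -4.64, -2.27, -2.79 and -4.23 in soybean meal + P2 fish, against -6.39, -5.34, -6.38, -5.48 and -8.08 in soybean meal fish. The groups did not overlap, yet both lay far below corn gluten + P2 at -0.20 ± 0.99, corn gluten at -0.56 ± 0.29 and control at -0.48 ± 0.95 (SD, n = 5 each). Its change was 2.77 (SE 0.54, limma adjusted p = 0.0187), in which soybean meal fish 5, at -8.08, was not well above background, so the size rests partly on a level at background. Probe Omy#CR375566 measured -0.95, -3.17, -2.74, -3.00 and -0.27 in soybean meal + P2 fish, against 0.75, 0.34, 0.08, 0.81 and 0.74 in soybean meal fish. This probe fell with P2 by 2.57 (SE 0.59, limma adjusted p = 0.0373), with no overlap. Probe Omy#S15242141 fell by 2.40 (SE 0.56, limma adjusted p = 0.0386), and its groups overlapped at no fish either: soybean meal + P2 fish lay between -5.44 and -2.86, and soybean meal fish between -2.59 and -2.14. These probes were named for large passing changes, so the lack of overlap follows in part from that choice. In the 20 fits without 1 fish, the change within soybean meal passed in 17 for Ssa#S18863448, 14 for Omy#CR375566, 11 for Omy#S15242141 and 11 for Ssa#S35585574. In corn gluten + P2 both probes that fell were near the soybean meal level, at 0.84 ± 0.22 and -2.12 ± 0.21. In corn gluten they were lower on average, at -1.19 ± 1.42 and -3.71 ± 1.53 (SD, n = 5 each). Control fish 1 measured 0.52 for Omy#CR375566, against -2.37 to -1.47 in the other control fish. For Omy#S15242141 control fish 1 measured -2.31, against -4.84 to -4.35. Corn gluten fish 2 lay above every soybean meal fish for both probes, and corn gluten fish 5 for Omy#S15242141. Corn gluten fish 3 lay at -2.38 and -4.85. High and low levels thus also occurred within diets without P2, and their part in the fall was not tested.

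The soybean meal pair shared 1 slide, with 2 fish of soybean meal + P2 and 1 of soybean meal. Within that slide 322 of the 325 probes had the same direction as over all fish, with a median size of 0.76 against 0.78. The probes were chosen with these fish included, and 1 diet had a single fish there, so the values are a description. With slide as a fixed block 1 probe passed and 0 of the 325 did, the median SE being 0.32 in place of 0.17. Normexp background correction left 36 probes, and means of presumed tanks left 16. The count ran from 40, without soybean meal + P2 fish 4, to 589, without soybean meal + P2 fish 5, and was lower by over 1.5 times in 7 other fits. It was 41 leaving out soybean meal fish 1, 72 for fish 3 and 174 for fish 4 of that diet. Leaving out soybean meal + P2 fish 1 gave 91 higher and 18 lower probes, and leaving out its fish 3 gave 70 in all. It was 212 without corn gluten fish 4 and 173 without corn gluten + P2 fish 3.

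The P2 effect depended on the plant protein for 108 of 13577 probes (0.795%), tested as the change in soybean meal minus the change in corn gluten. The interaction was above 0 for 54 probes (0.398%) and below 0 for 54 (0.398%) in limma, and 2315 probes (17.1%) had an unadjusted p below 0.05. The passing interactions had a median size of 2.33 log2 units and a median SE of 0.46, and 94 of the 108 exceeded 2-fold. Over all tested probes the median size was 0.26, and 1643 of 13577 exceeded 2-fold. Passing at such an SE takes a large estimate, so these sizes describe the chosen probes. Of the 54 probes above 0, P2 came with a higher level in soybean meal and a lower one in corn gluten for 53, and with a higher level in both for 1. All 54 probes below 0 had a lower level with P2 in soybean meal and a higher one in corn gluten. An interaction of such size selects for opposite signs, so these counts describe the probes and test nothing.

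The lowest p for an interaction was at probe Ssa#EG647420. It measured -3.58, -4.12, -4.01, -4.12 and -4.43 in soybean meal + P2 fish, against -6.84, -7.02, -5.95, -6.46 and -5.84 in soybean meal fish. In corn gluten + P2 fish it measured -5.58, -4.99, -5.10, -4.99 and -5.09, against -3.60, -3.65, -4.68, -4.07 and -3.25 in corn gluten fish. Neither pair overlapped: with P2 every soybean meal fish was higher and every corn gluten fish lower. The probe was named for its interaction in these fish, so this layout follows in part from that choice. The change was 2.37 in soybean meal (SE 0.26, limma adjusted p = 0.000461) and -1.30 in corn gluten (SE 0.26, limma adjusted p = 0.204), and the interaction was 3.67 (SE 0.37, 95% interval 2.90 to 4.44, limma adjusted p = 0.000116). Control fish averaged -3.88 ± 0.64, beside soybean meal + P2 and corn gluten. The interaction passed in all 20 fits that left out 1 fish, and was 0.78 and did not pass under normexp background correction (limma adjusted p = 0.353). Nor did it pass with slide as a fixed block or on means of presumed tanks, where 0 of the 108 probes passed.

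The other 3 named interaction probes were less even between fish. Probe Ssa#S35585574 measured -0.33, -1.40, -1.24, -1.34 and -4.12 in soybean meal + P2 fish, against -4.70, -5.01, -3.77, -4.18 and -3.84 in soybean meal fish. In corn gluten + P2 fish it measured -4.41, -1.79, -3.14, -0.86 and -2.87, against -0.48, -1.41, -1.46, -1.50 and -0.62 in corn gluten fish. Soybean meal + P2 fish 5 lay among the soybean meal fish, and corn gluten + P2 fish 4 among the corn gluten fish. The change was 2.62 in soybean meal (SE 0.63, limma adjusted p = 0.0416) and -1.52 in corn gluten (SE 0.63, limma adjusted p = 0.606), with an interaction of 4.14 (SE 0.89, limma adjusted p = 0.04).

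Probe Ssa#CA048649 ran the other way. It measured -4.54, -5.94, -5.80, -5.24 and -2.21 in soybean meal + P2 fish, against -1.41, -6.41, -1.70, -0.83 and -0.87 in soybean meal fish. In corn gluten + P2 fish it measured -1.15, -0.56, -1.55, -3.73 and -0.98, against -4.68, -3.99, -5.93, -5.95 and -4.83 in corn gluten fish. Soybean meal fish 2 had the lowest level of all 20 fish, and soybean meal + P2 fish 5 the highest of its diet. Control fish 1, at -1.15, stood above the other control fish at -6.44 to -4.87, so the same high and low levels occurred within the control diet. The interaction was -5.98 (SE 1.34, limma adjusted p = 0.0449), while neither pair passed alone, at -2.50 in soybean meal (limma adjusted p = 0.144) and 3.48 in corn gluten (limma adjusted p = 0.326).

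Probe Omy#S51827127 followed the same fish. Its levels were -2.63, -4.34, -4.46, -3.63 and -1.28 in soybean meal + P2 fish and -0.64, -4.36, -1.0, -0.43 and -0.16 in soybean meal fish. They were -0.43, -0.18, -0.85, -2.34 and -0.37 in corn gluten + P2 fish and -2.93, -2.94, -4.35, -3.90 and -3.51 in corn gluten fish. The corn gluten groups did not overlap, and soybean meal fish 2 again lay with the soybean meal + P2 fish. The interaction was -4.64 (SE 1.02, limma adjusted p = 0.0402), with -1.95 in soybean meal (limma adjusted p = 0.136) and 2.69 in corn gluten (limma adjusted p = 0.325). Of the 20 fits that left out 1 fish, the interaction passed in 6 for Ssa#S35585574 and in 4 each for Ssa#CA048649 and Omy#S51827127.

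**Figure D1:**
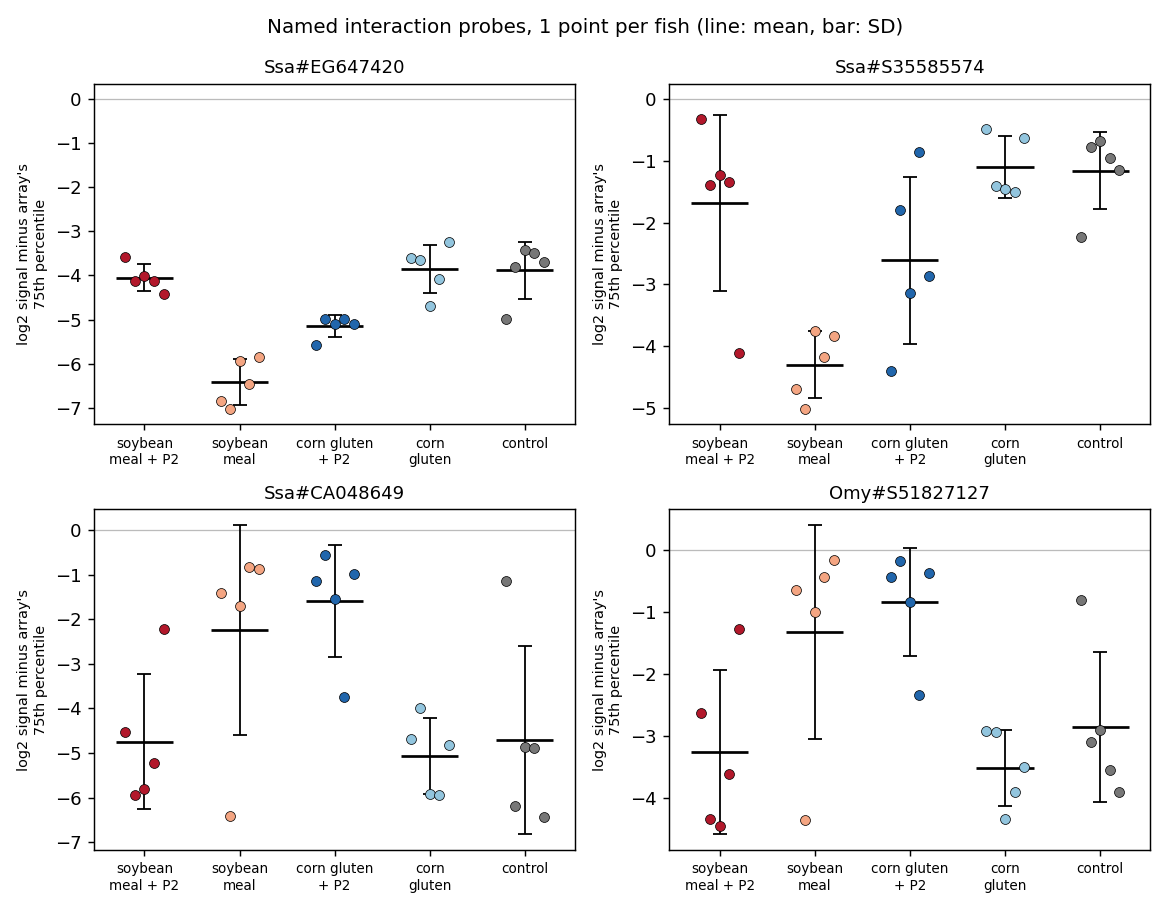
Level of the 4 named interaction probes in each fish, as log2 signal minus the 75th percentile of the array, in 5 diets with 5 fish each; points are fish, lines means and bars SDs. For Ssa#EG647420 the soybean meal + P2 fish (mean -4.05) lie above the soybean meal fish (-6.42) and the corn gluten + P2 fish (-5.15) below the corn gluten fish (-3.85), and in the other 3 panels single fish lie with the opposite diet.

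The 108 probes were also set against the control fish, which took no part in the fit. For the 54 probes above 0, the median level relative to the control mean was -0.07 in soybean meal + P2, -1.22 in soybean meal, -0.45 in corn gluten + P2 and 0.12 in corn gluten, in log2 units. Soybean meal stood lowest, and the probes were near the control level in soybean meal with P2 and in corn gluten without it. For the 54 probes below 0 the medians were -0.19 in soybean meal + P2, 1.19 in soybean meal, 1.37 in corn gluten + P2 and -0.03 in corn gluten. Here soybean meal and corn gluten + P2 were the raised diets. Only the control fish were outside the choice of the probes. The order of the diets follows in part from that choice and is a description. Over all 13577 probes the 4 medians lay between -0.04 and 0.01, where both directions cancel. The median absolute distance from control over all probes was 0.25, 0.32, 0.16 and 0.13, with the diets in the same order. It was 0.20, 1.22, 0.45 and 0.14 for the probes above 0, and 0.27, 1.25, 1.37 and 0.35 for those below 0.

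The change with P2 was also read in each protein for both sets, whose difference was not tested. Above 0, the median change with P2 was 1.1 in soybean meal and -0.57 in corn gluten, and 46 of 54 probes changed more in soybean meal in absolute terms. Below 0, the median change was -1.41 in soybean meal and 1.51 in corn gluten, and 25 of 54 were larger in soybean meal. Over all tested probes 8532 of 13577 changed more in soybean meal, and both sets were chosen with these fish. By the pair tests, P2 within soybean meal passed for 42 of the 54 above 0 (77.8%) and 22 of the 54 below 0 (40.7%), against 2.39% of all tested probes, and P2 within corn gluten passed for 0 of either set. The plant protein difference passed for 26 (48.1%) of the probes above 0 and 5 (9.26%) of those below 0, against 30.5% of all tested probes. These tests use the fish that chose the probes and are descriptions. The probes were dim, with median levels of -4.26 above 0 and -5.01 below 0 against -2.26 over all tested probes. Well above background on all 20 arrays were 45 of the 54 above 0 and 34 of the 54 below 0, against 11691 of 13577.

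Levels per fish showed that the diets were not uniform. Over the 54 probes below 0, the median of a fish relative to the control mean was -0.21, -0.56, -0.50, -0.68 and 0.95 in soybean meal + P2 fish, against 1.20, 0.54, 1.1, 1.55 and 1.73 in soybean meal fish. It was 1.42, 1.66, 1.31, 0.99 and 1.84 in corn gluten + P2 fish, against 0.02, 0.90, -0.68, -0.45 and -0.13 in corn gluten fish. Soybean meal + P2 fish 5 and corn gluten fish 2 thus lay in the range of the diets with raised levels. Control fish 1, at 1.28, lay there too, while the other control fish lay between -0.48 and -0.05. Over the 54 probes above 0, the medians were 0.26, -0.02, 0.00, -0.02 and -0.43 in soybean meal + P2 fish and -1.44, -0.94, -1.38, -1.19 and -1.06 in soybean meal fish. They were -0.38, -0.56, -0.63, -0.05 and -0.41 in corn gluten + P2 fish and 0.42, 0.24, -0.17, -0.16 and 0.50 in corn gluten fish, and every soybean meal fish lay below every fish of the other 3 diets. The fish of these diets chose the probes, so the separation of the diets is a description.

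**Figure D2:**
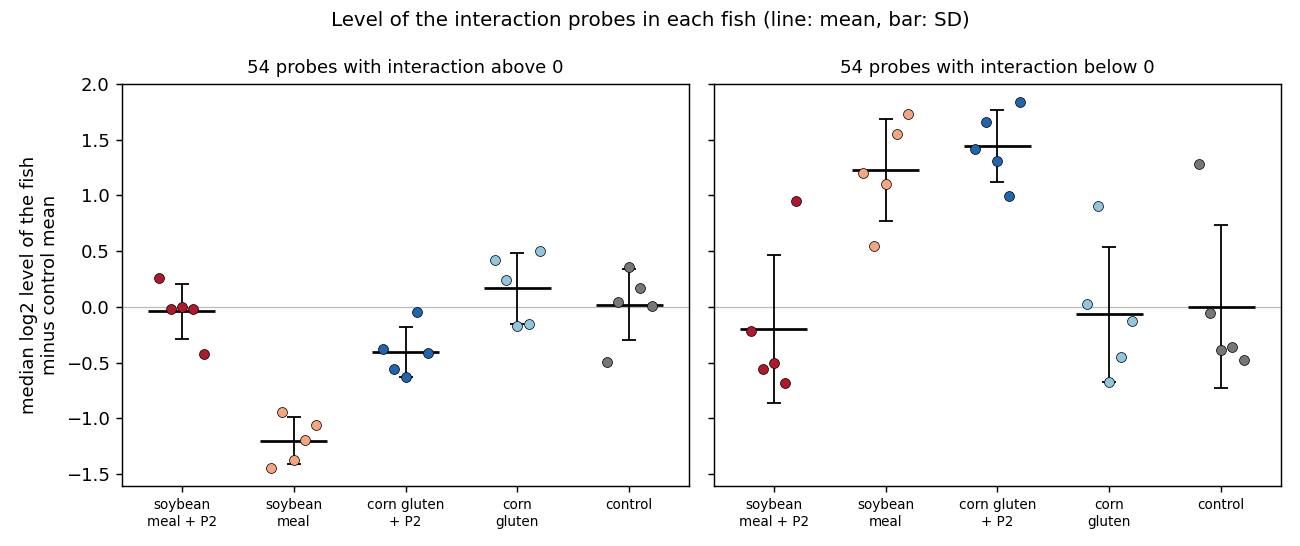
Median log2 level of each fish over the 54 probes with an interaction above 0 (left) and the 54 below 0 (right), relative to the control mean; points are fish, lines means and bars SDs. Soybean meal fish are lowest on the left (-1.44 to -0.94), and on the right soybean meal + P2 fish 5 (0.95), corn gluten fish 2 (0.90) and control fish 1 (1.28) stand above the rest of their diets. The probes were chosen with the fish shown, except the control fish.

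Across all 13577 probes the change with P2 in corn gluten leaned against the change with P2 in soybean meal. Both changes come from separate fish but share the arrays' platform, scaling and some slides. On 1 slide lay 2 soybean meal and 3 corn gluten + P2 fish, and on another 1 soybean meal + P2 and 2 corn gluten fish. The remaining slide with several of these diets held 2 soybean meal + P2, 3 corn gluten and 1 soybean meal fish. The part of slide in this leaning was not tested. Pearson's r across probes was -0.29, and 46.7% of probes had the same sign in both. Genes are not independent replicates, so this is a description. Without corn gluten fish 1 the r was -0.16. In the 12167 probes that were well above background on 18 or more of the 20 arrays the r was -0.22, with 47.9% of the same sign.

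**Figure D3:**
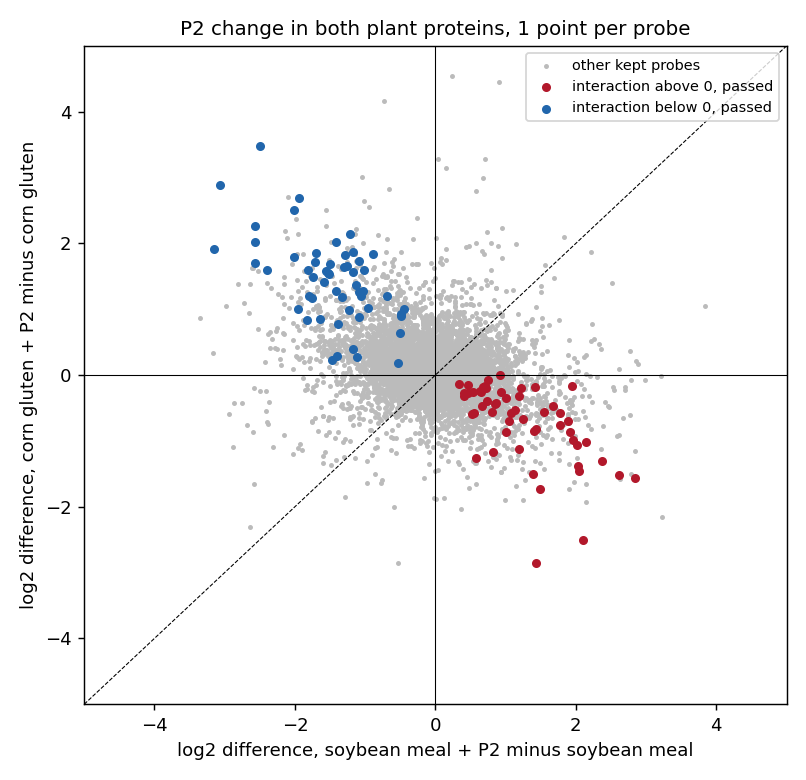
Change with P2 in soybean meal (horizontal) against change with P2 in corn gluten (vertical) for the 13577 probes, in log2 units; coloured points are the 108 probes whose interaction passed, and the dashed line marks equal changes. The coloured points lie in the upper left and lower right except for 1, and the cloud of all probes has r = -0.29.

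Probes chosen in the soybean meal fish alone were then read in the corn gluten fish. These fish are separate, but they share slides. On 1 slide 3 corn gluten + P2 fish lay with 2 soybean meal fish. All corn gluten fish lay on slides with soybean meal + P2 fish, 1 of these slides also holding 1 soybean meal fish. The part of slide in this reading was not tested. A limma fit to the 10 soybean meal + P2 and soybean meal arrays passed 198 probes, 126 higher and 72 lower with P2. The mean level of a fish over these probes, with the sign turned for the lower ones and control at 0, was -0.71, -0.79, -0.67, -0.25 and -0.61 in corn gluten + P2 fish, against 0.32, -0.77, -0.35, 0.03 and -0.57 in corn gluten fish. The ranges overlapped, since corn gluten fish 2 lay near the lowest corn gluten + P2 fish, and the diets differed by -0.34 (means -0.61 ± 0.21 and -0.27 ± 0.44, SD, n = 5 each). The difference was -0.14 without soybean meal fish 4 and -0.19 without corn gluten fish 1, and reached -0.50 without soybean meal fish 2. Over the 200 probes with the lowest p under normexp it was -0.10. A value in the soybean meal direction would have been above 0. Control fish ran from -0.79 to 0.42, as wide as the corn gluten fish. Over the 325 probes of the fit to 20 arrays, the change in corn gluten had the opposite sign for 192. The others had the same sign, and the median was -0.04 in the soybean meal direction. Over all 13577 probes 46.7% had the same sign in both proteins, so opposite signs were already the more common. That share was 44.1% after median scaling, 46.3% after quantile normalization and 33.8% under normexp. Whether the 325 probes differed from the share over all probes was not tested.

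Detection flags were compared between the proteins as well. A probe was called gained with P2 if it was well above background in at least 4 of 5 fish with P2 and at most 1 without, and lost in the reverse case. Of 14841 probes, 92 were gained and 78 lost in soybean meal, and 59 gained and 34 lost in corn gluten. In both proteins 1 probe was gained and 0 were lost. A further 9 were gained in soybean meal and lost in corn gluten, and 17 lost in soybean meal and gained in corn gluten. By definition such probes are mostly at background in 1 diet of a pair, and the overlaps were not tested. The 1 shared probe was Ssa#ES325815, named after its values were seen. It was well above background in 4 soybean meal + P2, 0 soybean meal, 4 corn gluten + P2 and 1 corn gluten fish, and its averaged change of 0.92 did not pass (limma adjusted p = 0.39).

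Variation between fish of 1 diet moved with the P2 changes. In an analysis added after the data were seen, the leading principal component of the deviations of control and soybean meal + P1 fish from their diet means was taken, P1 being the other package, with butyrate and arginine. These 10 fish are in none of the 4 diets but share slides with them. Control fish lay on slides with corn gluten + P2, soybean meal + P2 and corn gluten fish, and soybean meal + P1 fish on slides with all 4 diets. The part of slide in the component was not tested. The component held 27.1% of the variance within these diets over 13322 probes without missing spots. With its sign set to be positive for soybean meal, its weights correlated across probes with the P2 change at 0.59 in soybean meal and -0.43 in corn gluten. Under normexp it held 61.9% of the variance, with correlations of 0.58 and -0.24. The part of this variation in the interaction was not tested.

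Scores of the fish on that component were 0.14, 0.10, 0.05, 0.12 and -0.19 in soybean meal + P2 fish, against -0.26, -0.08, -0.24, -0.39 and -0.38 in soybean meal fish. They were -0.26, -0.29, -0.25, -0.03 and -0.28 in corn gluten + P2 fish, against 0.10, -0.26, 0.00, 0.07 and -0.14 in corn gluten fish. Soybean meal + P2 fish 5, soybean meal fish 2, corn gluten + P2 fish 4 and corn gluten fish 2 and 5 lay nearer the mean of the opposite diet of their pair than their own. Control fish ran from -0.42 to 0.31, but the component was built on these fish, so their spread on it was set by its construction. With the component taken from corn gluten + P2 and corn gluten fish the correlations were 0.32 and -0.16, and with soybean meal + P2 and soybean meal fish 0.16 and -0.29.

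**Figure D4:**
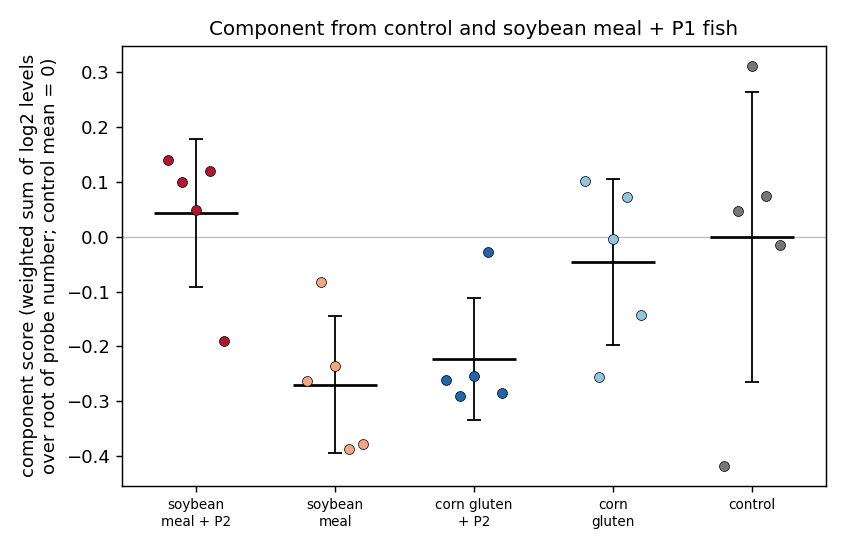
Score of each fish on the leading component of variation within the control and soybean meal + P1 diets (weighted sum of log2 levels over the root of the probe number, control mean at 0); points are fish, lines means and bars SDs. Means are 0.04 in soybean meal + P2, -0.27 in soybean meal, -0.22 in corn gluten + P2 and -0.05 in corn gluten, and control fish span -0.42 to 0.31.

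The number of interactions that passed varied with the fish left out. The count was 376 without soybean meal + P2 fish 5, 239 without corn gluten + P2 fish 4 and 184 without corn gluten fish 2. Without soybean meal fish 2, 83 probes passed above 0, which was 41.7% of all that passed. Leaving out soybean meal + P2 fish 1, 2, 3 or 4 gave 24, 23, 6 and 6 probes. Leaving out corn gluten + P2 fish 2, 3 or 5 gave 14, 16 and 26. For soybean meal fish 1, 3 or 4 the count was 34, 22 and 26, and for corn gluten fish 1 or 4 it was 32 and 61. It moved less without corn gluten fish 3 or 5 (97 and 88), corn gluten + P2 fish 1 (85) or soybean meal fish 5 (91). In each of the 20 fits without 1 fish all 108 probes kept their direction, and their median size lay between 2.26 and 2.58. The probes were chosen with these fish included, so the direction and size are descriptions.

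**Figure D5:**
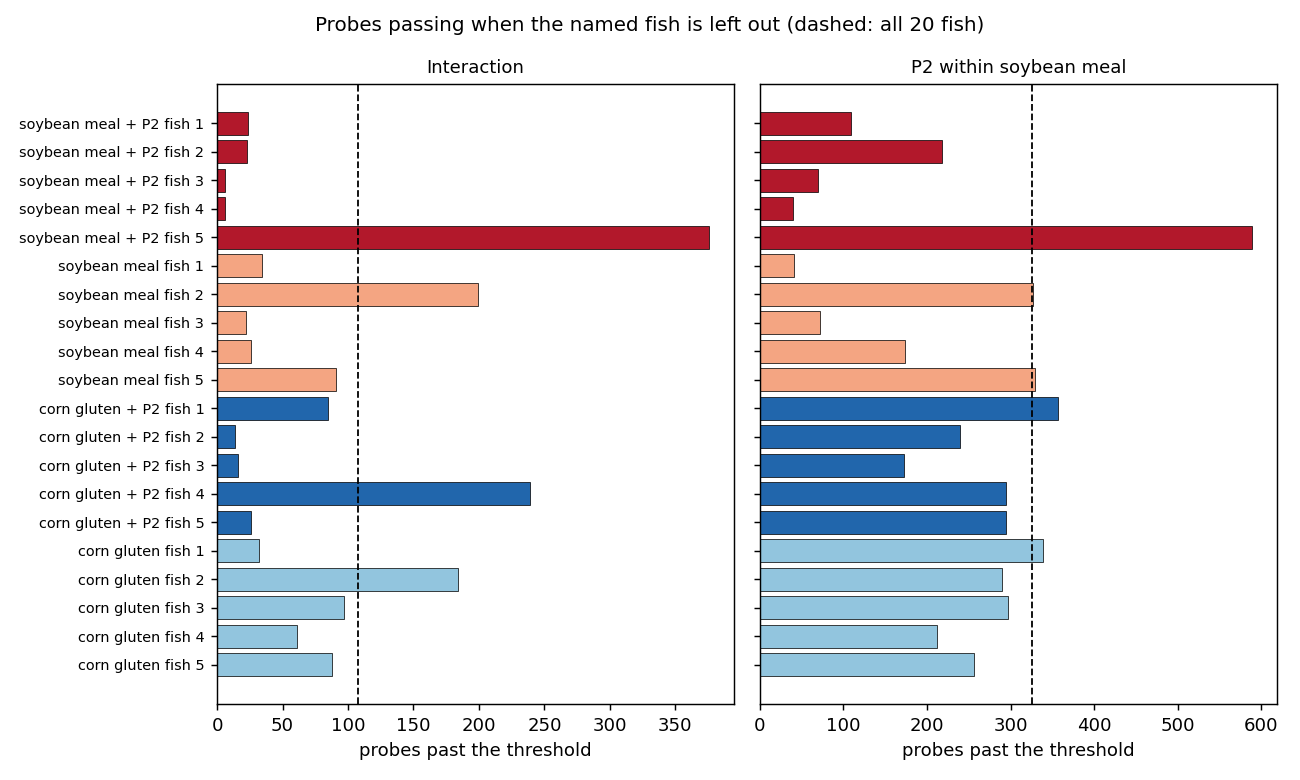
Number of probes passing an adjusted p of 0.05 in limma when the fish named on the left is left out, for the interaction and for P2 within soybean meal; dashed lines mark 108 and 325 with all 20 fish. Leaving out soybean meal + P2 fish 5 gives the most probes in both panels (376 and 589), and soybean meal + P2 fish 4 the fewest or joint fewest (6 and 40).

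The count of passing interactions also varied with the handling of slide and with background correction. Of the 6 slides only 3 held more than 1 diet of the factorial, and corn gluten + P2 met corn gluten on none, so a slide block links that pair only through the soybean meal diets. Of these diets, corn gluten + P2 shared a slide with soybean meal alone, and corn gluten shared slides mostly with soybean meal + P2. With slide as a fixed block 1 probe passed, Ssa#CL307Contig1 (named after its values were seen), with an interaction of 7.44 (SE 0.89, limma adjusted p = 0.0179). All 108 probes kept their direction, with a median size of 2.87 and a median SE of 1.11 in place of 0.46. The same fish had chosen the probes, so their direction is a description here too. With slide as a random block 335 probes passed in limma, and the correlation within slides was -0.05. Under normexp background correction 0 passed in limma, 1902 probes had an unadjusted p below 0.05, and 95 of 108 kept their direction, with a median size of 0.77. Other scalings moved the split of directions, with 125 above and 72 below 0 after median scaling, 174 and 103 after quantile normalization, and 27 and 39 in the authors' value table.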

How the data were processed

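Total RNA of the distal intestine was amplified and labelled with Cy3 (1 colour) and hybridised to Agilent arrays, per the labels' protocols. Per the file headers, the spots were quantified with Feature Extraction 12.0.1.1. The deposited scanner files give processed signals as intensity values (linear, with the background of each array already subtracted), not normalized between arrays. The authors' deposited value table of the same arrays holds intensity values that matched the spot median minus local background times 1 factor per array. It is linear and not centred, with column medians of 73.0 to 101.0, and served as an alternative. Its scaling rule is not given in the sources used here.

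Processed signals were put on the log2 scale, less the 75th percentile of each array over non-control probes. Outlier spots (325 on the 20 arrays) were treated as missing, and 0 were saturated. Probes were kept if 5 or more of the 30 arrays marked them well above background. limma 3.58.1 in R 4.3.3 was fitted to the 20 arrays with 1 coefficient per diet and eBayes without trend. P2 averaged over both proteins, P2 within each protein, the protein difference and the interaction were contrasts, with Benjamini-Hochberg adjustment within each over all 13577 probes, and the threshold was an adjusted p of 0.05. All p-values of single probes come from limma, and the procedure was tested on simulated data. For each contrast 2 higher and 2 lower probes were named. Where probes passed, the largest differences were taken among passing probes that 18 or more of the 20 arrays marked well above background. Where none passed, the lowest p were taken among probes marked in this way. All were chosen from the fish of the 4 diets, so overlap or its lack between these diets describes the probes and tests nothing.

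The diets, comparisons and lists were chosen with earlier results of these data known. None of the 14841 probe identifiers could be matched to a gene symbol (0 matched), so the gene lists and cell type markers were not used. Probe sequences were not used here. Alternatives covered background correction (normexp, run on the spot median with an offset of 50, since the spot mean is not a column of the scanner files), scaling, the filter, the value table, the fish in the fit, the variance model, slide, fish number, presumed tank and leaving out each fish. Presumed tanks and sampling rounds come from the fish numbers in the names of the deposited files and not from the labels. The precision is limited by the 5 fish per diet.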

Additional observations from a re-analysis of the deposited data

Results flagged for a closer look

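A fish was singled out where its gap to the nearest fish of its diet, divided by the range of the diet, exceeded Dixon's critical value. Of 76 groups examined 10 held such a fish. Chance gives about 1 in 20 for independent groups. These groups share the same fish, and most of their probes were chosen from those fish, so no excess can be read from the count. Levels are log2 values relative to the 75th percentile of the array.

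Soybean meal + P2 fish 5 stood apart 4 times, always toward soybean meal. It measured -4.12 for Ssa#S35585574 (nearest fish -1.39) and -2.86 for Omy#S15242141 (nearest fish -5.00). Its mean over the 198 probes chosen in soybean meal fish was -0.49 (nearest 0.18), and its component score was -0.19 (nearest 0.05). Soybean meal fish 2 stood apart at -6.41 for Ssa#CA048649 (nearest -1.70) and at -4.36 for Omy#S51827127 (nearest -1.01), which are levels of the soybean meal + P2 fish. In corn gluten + P2, fish 1 lay at -5.58 for Ssa#EG647420 (nearest -5.10) and at 1.54 for Ssa#S18863448 (nearest -0.30), and fish 4 had a component score of -0.03 (nearest -0.25). Corn gluten fish 2 measured -2.44 for Ssa#S47729315 (nearest -3.93).

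The P2 effect differed between both plant proteins by the interaction test in limma for 108 probes. The named ones had interactions, as the change in soybean meal minus the change in corn gluten, of 4.14 for Ssa#S35585574, 3.67 for Ssa#EG647420, -5.98 for Ssa#CA048649 and -4.64 for Omy#S51827127. Under normexp and on means of presumed tanks 0 interactions passed, and with slide as a fixed block 1 did.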

How the results depend on the processing

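No named difference changed sign under any alternative, but the probes were chosen from these same fish. Of 728 values for the 20 named differences, 612 stayed on their side of the threshold, 108 no longer passed and 8 newly passed. The P2 effect averaged over both proteins gave 1 probe with slide as a fixed block (Ssa#S30297225), 1 with fish number as a replicate block (Ssa#S35025421), and 0 to 26 when 1 fish was left out. P2 within corn gluten gave 3 probes with array weights, 2 with the replicate block, 2 with presumed sampling round as a block, 1 in a fit to these diets alone (Ssa#DY701810), and 0 to 12 leaving out 1 fish. The interaction gave 0 with normexp, 197 with median scaling, 277 with quantile normalization, 66 in the authors' value table, 14 with all 30 arrays in the fit, 313 with array weights, 1 with slide as a fixed block and 335 as a random block, 0 on means of presumed tanks, 211 with presumed sampling round, and 6 to 376 leaving out 1 fish. P2 within soybean meal gave 36 with normexp, 168 with all 30 arrays, 1 with slide as a fixed block (Ssa#CL307Contig1), 186 with the replicate block, 16 on tank means, 198 in a fit to these diets alone, and 40 to 589 leaving out 1 fish. The protein difference gave 2687 with normexp, 2404 with slide as a fixed block, and 3619 to 4156 leaving out 1 fish. At an unadjusted p below 0.05 the interaction had 1902 probes with normexp and 1900 on tank means, with 0 passing in limma in both. Tank means leave 3 values per diet. Normexp moved the median of all probes by -0.20 in the interaction and by -0.17 within soybean meal. The cause of these differences was not tested.

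The r across probes was -0.36 to -0.16 leaving out 1 fish, and -0.30 to -0.22 under the other alternatives. The difference between corn gluten + P2 and corn gluten over probes chosen in soybean meal fish was -0.50 to -0.14 leaving out 1 fish. In 5 of the 20 such choices, and with normexp on passing probes, too few probes passed (under 20), so no value was computed. Over the 200 probes with the lowest p it was -0.34, and -0.10 with normexp. Whether fish numbers pair the fish was not tested. Of 30 same-numbered pairs 9 had deviations correlated above 0.1, and 7 of 20 fish correlated best with their own number. The mean correlation was -0.02, -0.01, 0.00, 0.07 and 0.15 for numbers 1 to 5, against -0.01 between different numbers. The replicate block (141 interaction probes, 52 above and 89 below 0) is given in this section alone. The correlation within slides was -0.05 and within presumed tanks -0.01. Of the 108 interaction probes 83 were well above background on at least 18 arrays, against 12167 of all 13577 tested probes. Whether dim signals bore on the interaction was not tested.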
